A study of Mus musculus with 24 samples.

Results

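The exchangeable apolipoproteins are mostly small amphipathic proteins that bind to the surface of lipoproteins and can move from one particle to another. The set described here holds 10 genes, Apoa1, Apoa2, Apoa4, Apoa5, Apoc1, Apoc2, Apoc3, Apoc4, Apoe and Apoh, which were taken by name and not by these properties. The choice was made with earlier results of these data known. Each was found by its gene name among the array spots that are not controls, and was represented by its brightest probe in the mouse channel. The array carried 16 probes for them, and the 10 genes stood among 18650 genes that were tested.

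The study asked how galactose, the other monosaccharide of milk sugar beside glucose, acts on the liver when it replaces part of the glucose eaten after weaning. Livers came from female C57BL/6JRcc mice, an inbred laboratory strain with no transgene or deletion named in the labels. From 3 weeks of age each mouse, housed alone, ate a semi-synthetic diet with 32% of energy from monosaccharides, 32% from starch, 20% from protein and 16% from fat. In 12 mice the monosaccharide was glucose only (GLU), and in 12 it was equal parts glucose and galactose (GLU+GAL). The right liver lobe was taken at 6 weeks of age, at postnatal day 42, from food-deprived mice in the light phase, and its RNA was hybridised to 24 arrays on 3 slides, with 4 mice of each diet per slide. Each value below is the log2 ratio of Cy5 signal (the mouse) over Cy3 signal (a pool of all mice), after normalisation within the array, and differences are GLU+GAL minus GLU. Apoa2, Apoc1 and Apoe were above 0 in every mouse, although the pool held all mice. Without a dye swap the distance of a gene from 0 is therefore not read as a level. Whole tissue was used, so fewer cells of a type and less RNA per cell cannot be told apart.

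Liver secretes most of these proteins, and intestine is the other main source of several. Apoa1 is the structural protein of high-density lipoprotein (HDL) and Apoa2 its second most common protein. Apoc2 activates lipoprotein lipase, the enzyme that takes triglyceride out of circulating particles, and Apoa5 increases that clearance, whereas Apoc3 and Apoc1 slow it and hinder uptake of remnants. Apoe is the ligand through which the liver's receptors take up remnant particles. Most of the genes lie in a pair of clusters. On build GRCm38.p6, Apoc2, Apoc4, Apoc1 and Apoe lie on chromosome 7 between bases 19671579 and 19701310, and Apoa1, Apoc3, Apoa4 and Apoa5 on chromosome 9 between 46228630 and 46271921. Apoa2 lies alone on chromosome 1 from 171221564 to 171226379, and Apoh alone on chromosome 11 from 108395297 to 108414396.

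The most closely covarying pairs of the set were Apoa2 with Apoe and Apoa4 with Apoc2. Their promoters are shown because these pairs lie in different places of the genome and so share no promoter. Each runs from 250 bases before to 50 bases after the start site (RefSeq, GRCm38.p6), 5′ to 3′ on the gene's strand, and for genes with several listed starts the one farthest upstream is given. Capitals mark TATAAA (the sequence of the TATA box), AGGTCA (the binding half-site of many nuclear receptors) or AAAGTNCA (the core recognised by HNF4), on either strand. The positions are, in the order printed, chr1:171221314-171221613 on the plus strand, chr7:19699139-19699438 on the minus strand, chr9:46240594-46240893 on the plus strand and chr7:19677892-19678191 on the minus strand.
Apoa2: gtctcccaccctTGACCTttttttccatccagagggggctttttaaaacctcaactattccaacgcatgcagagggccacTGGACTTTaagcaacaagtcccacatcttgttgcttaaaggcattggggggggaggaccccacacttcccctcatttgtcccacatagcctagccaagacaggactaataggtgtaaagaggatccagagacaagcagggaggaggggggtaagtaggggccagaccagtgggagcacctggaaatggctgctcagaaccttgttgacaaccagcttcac
Apoe: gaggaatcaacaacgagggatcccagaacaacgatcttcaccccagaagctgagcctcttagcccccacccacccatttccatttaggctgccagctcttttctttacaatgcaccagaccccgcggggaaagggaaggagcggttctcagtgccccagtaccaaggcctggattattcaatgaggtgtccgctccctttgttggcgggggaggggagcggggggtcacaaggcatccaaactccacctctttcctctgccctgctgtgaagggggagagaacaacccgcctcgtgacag
Apoa4: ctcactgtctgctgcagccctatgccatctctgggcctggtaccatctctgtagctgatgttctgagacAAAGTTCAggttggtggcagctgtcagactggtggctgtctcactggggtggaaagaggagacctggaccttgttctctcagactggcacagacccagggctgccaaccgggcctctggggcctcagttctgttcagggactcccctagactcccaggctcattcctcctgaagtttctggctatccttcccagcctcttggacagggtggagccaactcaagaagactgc
Apoc2: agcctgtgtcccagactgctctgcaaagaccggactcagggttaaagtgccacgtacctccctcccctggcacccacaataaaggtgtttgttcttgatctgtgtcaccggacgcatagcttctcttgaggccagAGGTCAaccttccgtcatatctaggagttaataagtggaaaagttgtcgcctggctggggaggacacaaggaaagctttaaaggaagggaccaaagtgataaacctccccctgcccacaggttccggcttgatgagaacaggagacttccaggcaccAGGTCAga

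In these windows Apoc2 held AGGTCA at 2 places, Apoa2 held AGGTCA and AAAGTNCA at 1 place each, Apoa4 held AAAGTNCA at 1 place, and the Apoe window held none of the motifs. Of the 10 genes 8 had a listed promoter, with 12 listed starts. AGGTCA lay in the promoters of 4 of these genes (Apoa2, Apoc2, Apoc4 and Apoh). Counted by start, this was 4 of the 12, beside 16.3% of all 32851 listed promoters. AAAGTNCA lay in those of 3 genes (Apoa2, Apoa4 and Apoh), at 3 of the 12 starts, and in 4.12% of all promoters. TATAAA lay in those of 3 genes (Apoa2, Apoa5 and Apoe), at 4 of the 12 starts, and in 13.6% of all promoters. From the start site it lay at -212 in Apoa2 and at -100 and -96 in Apoe. In Apoa5 it lay at -31 and -56 from different starts, which is the same site in the genome. Whether any of these acts as a TATA box was not tested. AGGTCA and AAAGTNCA can overlap by no more than a letter at an end, and each was counted by itself. Neither printed pair shared a motif in these windows.

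All 10 probes were well above background on all 24 arrays and none was saturated. Over the 24 arrays 46.6% to 51.3% of all spots passed the same limit in Cy5. All 10 hepatocyte markers on a fixed list, among them Alb, Ttr and Hnf4a, were measured. Of 10 enterocyte markers 7 (Vil1, Sis, Lct, Cdx1, Cdx2, Alpi and Reg3b) did not pass the filter on dim probes. Array GLU+GAL 4 stood apart, with a median correlation of its pool channel with the others of 0.977 and an SD of its log2 ratios of 0.45, the lowest and the highest of the 24. The mean log2 ratio of 4 measured skeletal muscle markers (of 7 listed, with Ckm, Acta1 and Myh1 not measured) was 0.74 in this mouse and at most 0.26 in the others, and that of Slc34a1, the measured 1 of 6 kidney and adrenal markers, 0.50 and at most 0.26. It was also the mouse with the lowest Apoa1 and the highest Apoa4, and the part of these markers in those values was not tested. Mouse GLU+GAL 12 went against its label, since Xist was not well above background while Eif2s3y and Ddx3y were, and the other 23 mice showed the reverse. Without GLU+GAL 4 the Apoa1 difference was -0.17 and the Apoe difference -0.125, and without GLU+GAL 12 they were -0.201 and -0.135.

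No apolipoprotein gene differed between the diets past the threshold, and the differences were small. Of the 10 genes 8 had a lower mean in GLU+GAL, against 49.2% of all tested genes, and 2 had a higher one, against 50.8%, with normexp and loess. This direction depended on the scaling: 8 were lower without background subtraction and with scaling between arrays, but 4 with Cy5 alone after quantile normalisation, 3 with Cy5 alone at the 75th percentile, 3 with median centring, 2 in the authors' deposited table and 1 with the scanner software's processed signals. The share of all genes that were lower moved as well. In the same order of settings it was 48.1%, 52.0%, 48.9%, 45.8%, 51.4%, 43.8% and 32.7%. The median difference over the 10 genes was -0.06, beside 0.00 over all genes tested, and it ranged from -0.08 to 0.07 under those scalings. Over all genes the median ranged from -0.0033 with scaling between arrays to 0.041 in the processed signals. After Benjamini-Hochberg adjustment over all 18650 genes in limma, 0 of the 10 passed 0.05 and each had an adjusted p of 0.999. The background was 0% of all genes, with 0 called, and the smallest adjusted p of any gene was 0.523. At an unadjusted p under 0.05 stood 2 of the 10 genes, Apoe and Apoa1, and 4.31% of all genes.

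**Figure D1:**
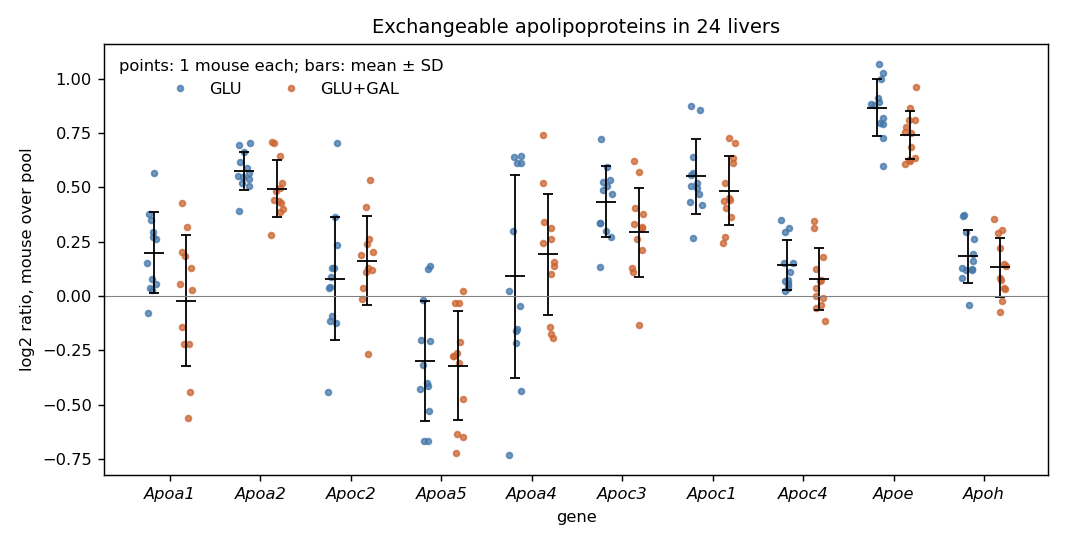
Log2 ratio of mouse over pool (vertical axis) for the 10 apolipoprotein genes (horizontal axis) in 12 GLU and 12 GLU+GAL mice, 1 point per mouse, with the mean and SD of each diet as bars. The diets overlap in every gene, and Apoa4 and Apoa1 spread far more widely than Apoa2, Apoe, Apoc4 or Apoh.

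Apoa1 had the largest difference of the set. Its log2 ratio ran from -0.08 to 0.57 in GLU mice, with a median of 0.21, and from -0.56 to 0.43 in GLU+GAL mice, with a median of 0.04. The diets overlapped, although the GLU mean was above the value of 9 of 12 GLU+GAL mice. The lowest mouse was GLU+GAL 4 and the highest GLU 10. The means were 0.20 ± 0.19 in GLU and -0.02 ± 0.30 in GLU+GAL (SD, n = 12 each), a difference of -0.22 ± 0.10 (SE) with a 95% interval from -0.42 to -0.02 and an adjusted p of 0.999 in limma. On the linear scale this is 0.859 times the GLU level. Within the slides it was -0.25, -0.01 and -0.40, and it kept its sign under the 19 other settings tried, the slides included, from -0.40 to -0.01. Not all of these settings were checks of it. With a single probe and equal numbers of each diet per block, the filters, probe rules, blocks and variance setting could not change this difference. The gene has a single probe, whose opening 30 of 60 bases are shown to identify it, at chr9:46037921-46037980 of mm9, the build in the file headers.
Apoa1 probe: ttcaaccgttagtcagctgcaggaacggct

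Apoa2, the other HDL protein, varied little. It ran from 0.39 to 0.70 in GLU mice, with a median of 0.56, and from 0.28 to 0.71 in GLU+GAL mice, with a median of 0.46. The highest and the lowest mouse of the 24, GLU+GAL 9 and GLU+GAL 3, had the same diet. The difference was -0.08 ± 0.05 (SE), with a 95% interval from -0.18 to 0.02, and its sign reversed with median centring, with Cy5 alone, in the processed signals and in the deposited table. A second probe of the gene, which correlated with the first across the 24 mice at r = 0.82, gave -0.05 ± 0.06.

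Apoe, the remnant ligand, had a narrow spread and a small lower mean. GLU mice ran from 0.60 to 1.07, with a median of 0.88, and GLU+GAL mice from 0.61 to 0.96, with a median of 0.75. Although the ranges overlapped almost wholly, the GLU mean was above 11 of 12 GLU+GAL mice. The means were 0.87 ± 0.13 and 0.74 ± 0.11 (SD, n = 12 each), and the difference was -0.12 ± 0.05 (SE), with a 95% interval from -0.23 to -0.02 and an adjusted p of 0.999 in limma. A second probe gave -0.17 ± 0.06 and an unadjusted p of 0.011 in limma, and correlated with the first at r = 0.76. The direction was the same on each slide, at -0.17, -0.20 and 0.00 (a value of -0.0016), but it turned to 0.02 in the processed signals and to 0.01 in the deposited table. The opening 30 bases of both probes show that they are different oligos. The file headers place the first at chr7:20281732-20281791 and the other at chr7:20281578-20281627 of mm9, minus strand. These positions were not checked against the bases.
Apoe probe 1: aagatacaggcctctgtggctaccaacccc
Apoe probe 2: acacaagaagctgacggcactgatggagga

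Among the genes that act on lipolysis, the inhibitor Apoc3 had the next lower mean. Apoc3 ran from 0.13 to 0.72 in GLU mice, with a median of 0.48, and from -0.13 to 0.62 in GLU+GAL mice, with a median of 0.32. The ranges overlapped, and 10 of 12 GLU+GAL mice were below the mean of GLU. The difference was -0.14 ± 0.07 (SE), with a 95% interval from -0.29 to 0.01, and it turned to 0.00 (a value of 0.0036) in the processed signals. A second bright Apoc3 probe gave -0.09 ± 0.08 and another, dim one -0.02 ± 0.08.

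The activators of lipolysis did not differ beyond their spread either. Apoc2 ran from -0.44 to 0.70 in GLU mice, with a median of 0.06, and from -0.27 to 0.53 in GLU+GAL mice, with a median of 0.16. Its lowest mouse was GLU 3 and its highest GLU 12, so both ends lay in 1 diet, and the difference was 0.08 ± 0.10 (SE) with a 95% interval from -0.11 to 0.28. Within the slides it was -0.09, -0.05 and 0.38, and it was 0.04 without GLU 3, 0.05 without GLU+GAL 3 and 0.14 without GLU 12. Apoa5 ran from -0.67 to 0.14 in GLU and from -0.72 to 0.02 in GLU+GAL, with medians of -0.36 and -0.28. Its difference was -0.02 ± 0.10 (SE), with a 95% interval from -0.23 to 0.19, and it changed sign when any of 6 mice was left out.

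Apoa4, an apolipoprotein of chylomicrons and HDL that mouse liver also makes, was the most variable of the set. Its log2 ratio ran from -0.73 in GLU 3 to 0.65 in GLU mice and from -0.19 to 0.74 in GLU+GAL mice, with medians of -0.01 and 0.20. Of the GLU mice 5 lay at 0.299 or above and 6 at -0.0469 or below, with 1 between. The diets overlapped, and the difference was 0.10 ± 0.15 (SE), with a 95% interval from -0.20 to 0.40. Without GLU 3 it was 0.03, and without GLU 1 or GLU+GAL 4 it was 0.05.

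The remaining genes of the set had intervals that held 0. The difference was -0.07 ± 0.07 (SE) for Apoc1, -0.06 ± 0.05 for Apoc4, whose protein is found on very-low-density lipoprotein, and -0.05 ± 0.05 for Apoh, which binds phospholipids in plasma. The 95% interval was -0.20 to 0.07 for Apoc1, -0.18 to 0.05 for Apoc4 and -0.16 to 0.06 for Apoh. Single mice moved the first and the last: Apoc1 was -0.036 without GLU 7, -0.037 without GLU 12 and -0.043 without GLU+GAL 10, and Apoh -0.033 without GLU 5, -0.034 without GLU 7 and -0.032 without GLU+GAL 11. The mice of both diets overlapped in each: Apoc1 ran from 0.27 to 0.87 in GLU and from 0.24 to 0.73 in GLU+GAL, Apoc4 from 0.03 to 0.35 and from -0.11 to 0.34, and Apoh from -0.04 to 0.37 and from -0.07 to 0.35. All 3 signs reversed with median centring, with Cy5 alone at the 75th percentile, in the processed signals and in the deposited table.

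**Figure D2:**
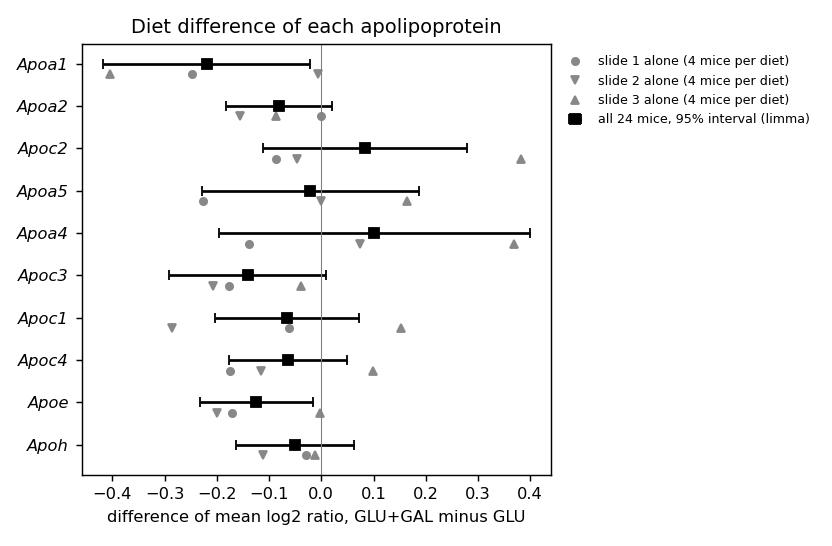
Difference of the mean log2 ratio, GLU+GAL minus GLU (horizontal axis), for each gene. Squares are all 24 mice with limma's 95% interval and grey symbols are each slide alone (4 mice per diet). The intervals of Apoa1 and Apoe lie below 0 before any adjustment, and in Apoa4, Apoa5, Apoc1, Apoc2 and Apoc4 the slides fall on both sides of 0. In Apoa2 slide 1 lies at 0 (a value of 1.9e-05) and the other slides below it.

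The genes around the set were read through lists made for the steps of lipoprotein metabolism, and none of their genes passed the adjusted threshold in limma. The counts of lower means below stand beside 49.2% of all tested genes, and 32.7% to 52.0% under the other scalings. Of 12 other apolipoprotein genes 9 had a lower mean and 3 a higher one, with a median difference of -0.10. At an unadjusted p under 0.05 4 were lower and 1 higher, beside 2.66% and 1.65% of all genes. Clu, a chaperone of plasma and HDL, differed by -0.17 ± 0.07 (SE), Apon by -0.18 ± 0.08 and Apoo, a protein of the mitochondrial membrane, by 0.10 ± 0.05. The count of 9 was the same under all 7 other scalings, while the median ran from -0.10 to -0.04.

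Of 13 particle assembly genes 10 had a lower mean, between 7 and 11 under the other scalings, with a median of -0.04 that ran from -0.053 to -0.0016 under them. Mia2, which helps to export large cargo from the endoplasmic reticulum, differed by -0.22 ± 0.09 (SE), Cideb, which loads lipid onto nascent particles, by -0.11 ± 0.06 and Mttp, the triglyceride transfer protein, by -0.11 ± 0.07. Of 11 HDL remodelling genes 9 were lower, between 6 and 10 under the other scalings. None stood at an unadjusted p under 0.05, beside 4.31% of all genes. The cholesterol exporter Abca1 differed by -0.15 ± 0.09 (SE), Abcg1 by -0.14 ± 0.10 and the fatty acid transporter Cd36 by 0.23 ± 0.11.

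Of 11 triglyceride clearance genes 6 were lower, between 4 and 7 under the other scalings. Angptl8, which restrains lipoprotein lipase in the fed state, had a difference of -0.50 ± 0.19 (SE) and an unadjusted p of 0.0127 in limma, and Lipc, hepatic lipase, one of -0.07 ± 0.06. Of 14 remnant and LDL receptor genes 6 were lower, between 5 and 7 under the other scalings, with a median of 0.01 that ran from 0.00 (a value of -0.00022) to 0.05 under them. The smallest p among them belonged to Lrp1 at -0.13 ± 0.11 (SE), followed by Stab2 at 0.09 ± 0.12.

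Of 33 regulators of apolipoprotein genes 27 had a lower mean, between 18 and 27 under the other scalings, with a median of -0.06 that ran from -0.059 to -0.015 under them. At an unadjusted p under 0.05 2 were lower, beside 2.66% of all genes. Foxa3 differed by -0.32 ± 0.11 (SE), Hnf4a, a nuclear receptor that binds many apolipoprotein promoters, by -0.16 ± 0.07 and Nr5a2 by -0.13 ± 0.07. Of 23 genes for other secreted hepatocyte proteins 22 had a lower mean, between 17 and 22 under the other scalings, with a median difference of -0.16. Under those scalings the median ran from -0.158 to -0.032, and it was -0.032 in the processed signals, -0.038 with Cy5 alone after quantile normalisation and -0.051 in the authors' deposited table. With normexp and loess 17 of the 23 stood at an unadjusted p under 0.05, all lower, beside 2.66% of all genes. The fibrinogen chains Fgb and Fga differed by -0.26 ± 0.06 (SE) and -0.28 ± 0.08, and Ambp, the precursor of a plasma lipocalin and a protease inhibitor, by -0.20 ± 0.05. The difference between this list and the 10 apolipoproteins was not tested.

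In spread among mice the genes of the set differed widely from one another. The SD within diets was 0.38 in Apoa4, at the 96.7th percentile of all tested genes, 0.26 in Apoa5 (percentile 87.8), 0.25 in Apoa1 (85.4) and 0.25 in Apoc2 (84.6). It was 0.11 in Apoa2, at the 11.1th percentile, 0.12 in Apoe and 0.13 in both Apoc4 and Apoh. From the lowest to the highest of the 24 mice the linear ratio covered 2.77-fold for Apoa4, 2.21-fold for Apoc2, 2.19-fold for Apoa1 and 1.34-fold for Apoa2. The median SD over the set was 0.18, beside 0.17 over all genes. The mice at the ends were GLU 3 and GLU+GAL 4 for Apoa4 and GLU 3 and GLU 12 for Apoc2. Scatter that comes from the probe and scatter that comes from the mice were not separated.

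The spread did not differ between the diets past the threshold in any of the 10 genes, with 0 called at an adjusted p under 0.05 in limma (0% of all genes), 0 at an unadjusted p under 0.05 (2.67% of all genes) and a smallest unadjusted p of 0.0579. That was Apoa4, with an SD of 0.47 in GLU and 0.28 in GLU+GAL mice. Apoa1 ran the other way, with 0.19 in GLU and 0.30 in GLU+GAL. The SD was smaller in GLU+GAL in 5 of the 10 genes and in 36.6% of all genes.

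Several of the genes rose and fell together from mouse to mouse. Of the 45 pairs 7 passed an adjusted p of 0.05 for Pearson's r in a 2-sided permutation test, and 12 an unadjusted one. The highest were Apoa2 with Apoe (r = 0.72, rho = 0.70, adjusted p = 0.0025 and 0.0058), Apoa4 with Apoc2 (r = 0.70, rho = 0.62, adjusted p = 0.0025 and 0.025) and Apoe with Apoh (r = 0.68, rho = 0.71, adjusted p = 0.0048 and 0.0058), each over 24 mice in the permutation test. The other 4 were Apoa2 with Apoc3 (0.59), Apoa2 with Apoh (0.55), Apoc3 with Apoe (0.54) and Apoa4 with Apoc4 (0.53), with adjusted permutation p between 0.027 and 0.049. These 4 were close to the threshold. Apoa2 with Apoc3 missed it without GLU 9 (r = 0.54) or GLU+GAL 12 (0.55), Apoc3 with Apoe without any of 10 mice (0.47 without GLU 9), Apoa2 with Apoh without any of 14 (0.50 without GLU+GAL 9) and Apoa4 with Apoc4 without any of 18 (0.47 without GLU+GAL 4). The count of 7 became 3 without GLU 9 and 4 without GLU 10, GLU 12 or GLU+GAL 2, 3, 4, 5 or 12. Among the 45 pairs, 8 or 17.8% reached r of 0.5, beside 4.38% of all pairs of tested genes. All genes of an array share its pool signal and its normalisation curve.

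At this threshold the 7 pairs fell into sets without a common member, seen after the values. Apoa2, Apoe, Apoh and Apoc3 were joined by 5 of the 6 possible pairs, and Apoa4 was joined to Apoc2 and to Apoc4. The next pair by r, Apoc3 with Apoc4, would join these sets (r = 0.52, adjusted permutation p = 0.051). It passed the threshold when any of 6 mice was left out. Apoc3 with Apoa4 also crossed the sets, at r = 0.46 (adjusted permutation p = 0.113), so the split depended on the threshold. Apoa1, Apoa5 and Apoc1 were in none of the 7 pairs. Apoa1 had r from -0.29 (Apoc1, -0.19 without GLU 10) to 0.30 (Apoa5) and no adjusted p under 0.369. The highest r of Apoa5 was 0.40, with Apoh (adjusted permutation p = 0.187). That of Apoc1 was 0.44, with Apoc2 (adjusted permutation p = 0.147). Of the 45 pairs 12 were negative.

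**Figure D3:**
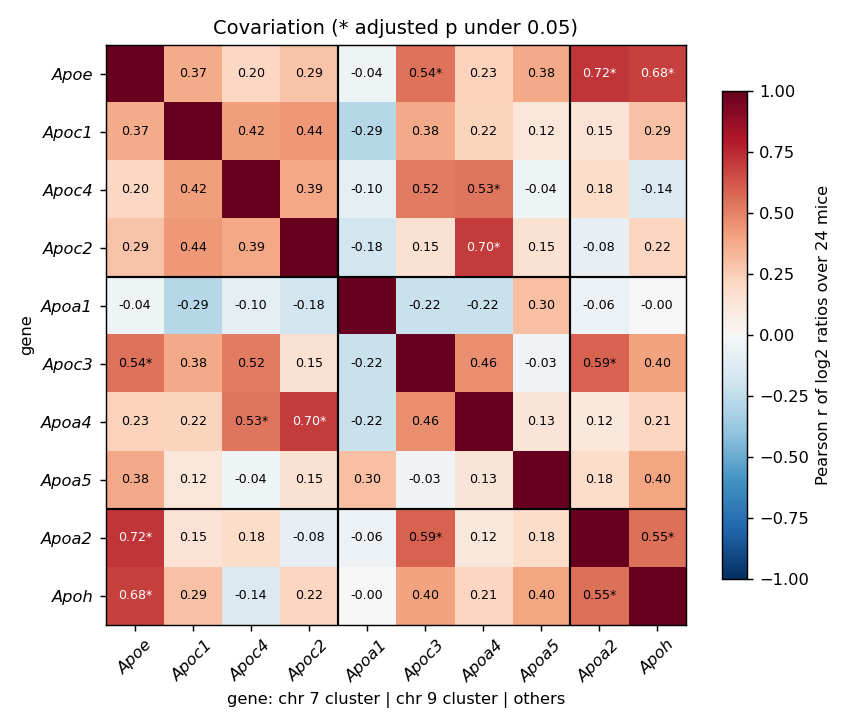
Pearson r of log2 ratios over 24 mice for each pair (colour and number), ordered by position in the genome, with lines around the chromosome 7 and chromosome 9 clusters. Asterisks mark an adjusted p under 0.05, with normexp and loess. None of the 7 marked pairs lies inside a cluster, and the Apoa1 row is near 0 or below it except with Apoa5.

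With normexp and loess no called pair was a pair of genes from the same cluster. The 6 pairs inside the chromosome 7 cluster had a mean r of 0.35, from 0.20 to 0.44, the 6 inside the chromosome 9 cluster one of 0.07, from -0.22 to 0.46, and the other 33 pairs one of 0.23. These means depended on the scaling: in the chromosome 7 cluster it was 0.69 with median centring and 0.17 with Cy5 alone after quantile normalisation, and in the chromosome 9 cluster 0.29 and 0.00 (a value of -0.0039). The mean in the chromosome 9 cluster was also 0.0027 without GLU+GAL 11, 0.042 without GLU 4 and 0.12 without GLU+GAL 1. Pairs share genes, so no test was made between these means.

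Apoa4 with Apoc2 was the pair that depended least on the processing. In GLU 3 both were at their lowest, at -0.73 and -0.44, and in GLU 12, at 0.65 and 0.70, both were high. Without GLU 3 r was 0.61, and without the 2 mice farthest from the Apoa4 median it was 0.57. It was 0.73 within GLU and 0.62 within GLU+GAL, 0.87, 0.30 and 0.75 within the slides, and 0.71 after diet and slide means were removed. Over the 24 mice it passed the threshold under all 12 alternatives that kept them, with r (or rho, as 1 of the alternatives) between 0.62 and 0.79. Among these, the rule for probes never saturated could not change it, since none of the probes of the set was saturated. Apoa2 with Apoe was 0.79 without the 2 mice farthest from the Apoa2 median, 0.56, 0.87 and 0.81 within the slides and 0.64 after diet and slide means were removed, but 0.29 with Cy5 alone after quantile normalisation. Apoe with Apoh was 0.60 without 2 mice and 0.48, 0.85 and 0.58 within the slides, and it was 0.30 with Cy5 alone after quantile normalisation and 0.47 with the mean of all probes of a gene.

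**Figure D4:**
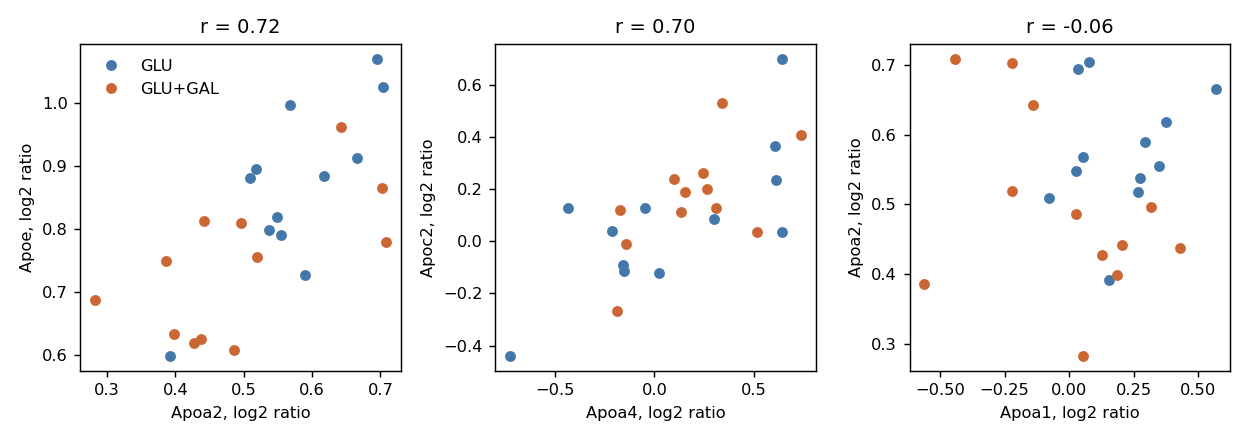
Log2 ratios of 1 gene against another in 24 mice, GLU and GLU+GAL in different colours: Apoa2 and Apoe (r = 0.72), Apoa4 and Apoc2 (r = 0.70), and Apoa1 and Apoa2 (r = -0.06), the HDL pair. The first and second clouds rise across both diets, and the HDL pair shows no trend.

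How many pairs covaried depended on the normalisation. With normexp and loess 7 pairs passed the threshold, with median centring 31, 26 in the values that the authors deposited, 25 in the processed signals, 12 with Cy5 alone at the 75th percentile and 1 with Cy5 alone after quantile normalisation. The background moved with the setting, from 2.80% of all gene pairs at r of 0.5 or more with scaling between arrays to 22.2% with median centring. In each of the 8 settings the share among apolipoprotein pairs was above that among all pairs. The level of other bright probes moved with the set under most scalings. Across 24 mice the mean of the 10 genes correlated with the median log2 ratio of 1766 other probes at least as bright as the dimmest of the 10, with r = 0.585 (permutation p = 0.0027) and rho = 0.53 (p = 0.0092) after loess. It was 0.48 without the 2 mice farthest from the median and 0.51, 0.81 and 0.60 within the slides, and with median centring r was 0.89. With Cy5 alone after quantile normalisation it was 0.25 (permutation p = 0.234), 0.08 without 2 mice and 0.55, -0.32 and 0.44 within the slides. The part of this shared level in the covariation was not tested.

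**Figure D5:**
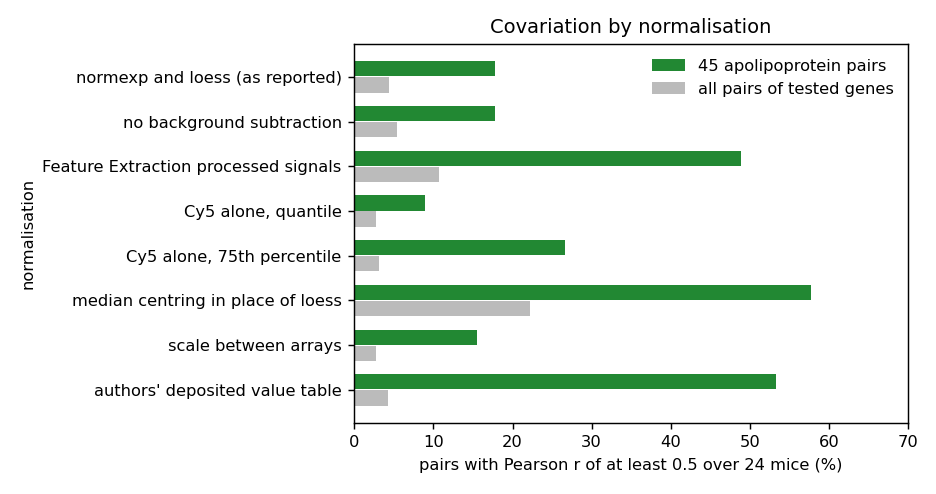
Percent of pairs with r of at least 0.5 over 24 mice (horizontal axis) among the 45 apolipoprotein pairs (green) and among all pairs of tested genes (grey), for 8 normalisations. The apolipoprotein share runs from 8.89% with Cy5 alone after quantile normalisation to 57.8% with median centring.

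Some mice were low or high in most of the set. GLU+GAL 10 and GLU+GAL 11 lay above the median of the 24 mice in 0 of the 10 genes, and GLU 9, GLU 12 and GLU+GAL 12 in 8 of 10. The mean over the 10 genes ran from 0.04 in GLU 3 to 0.45 in GLU 12, so both ends lay in the GLU diet. Of 130 relations between a gene of the set and a marker list or a measure of array quality, 1 passed the adjusted threshold. Apoc2 correlated with the mean of the 10 hepatocyte markers at r = 0.72 (permutation p = 7e-05, adjusted p = 0.0091) and rho = 0.68 (p = 0.00035), and at r = 0.61 without the 2 farthest mice. The single hepatocyte markers differed, with r from -0.29 to 0.76 with Apoc2, a mean of 0.37 and 4 of the 10 at 0.5 or more. Apoa1 was the gene with the highest r with the mean of 12 Kupffer cell markers, at 0.45, and Apoa4 the one with the lowest, at -0.50, with adjusted permutation p of 0.229 and 0.173 over 24 mice. Without the 2 farthest mice these were 0.28 and -0.59. The mean r with the single markers was 0.39 for Apoa1 and -0.44 for Apoa4, and 0.15 and -0.42 after diet and slide means were removed. All 12 Kupffer cell markers had a lower mean in GLU+GAL, under the 7 other scalings as well, with a median difference of -0.20 and 6 at an unadjusted p under 0.05. Of all genes 49.2% had a lower mean and 2.66% were lower at that p. The mean of the 12 ran from -0.19 to 0.68 in GLU and from -0.58 to 0.27 in GLU+GAL. Their part in the differences of the set was not tested.

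The genes whose pattern was most like each member were found by Pearson's r over the 24 mice among all tested genes, and these r are descriptions. For Apoe they were Azgp1 (0.85), Vtn (0.83) and Cyp2d12 (0.83). Azgp1 encodes a plasma glycoprotein and Vtn vitronectin. For Apoa2 they were Tmbim6 (0.78), Aldh2 (0.75), which oxidises acetaldehyde, and Ugt3a1 (0.75). For Apoh they were Lamp1 (0.82), a lysosomal membrane protein, C1rl (0.80) and Sppl2b (0.79).

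For Apoc2 the most alike named genes were Hgd (0.80), an enzyme of tyrosine breakdown, and Ddt (0.77), with a further one known only by a clone name. For Apoc1 they were Ndufa13 (0.82), a subunit of respiratory complex I, Tor1aip2 (0.80) and Atp5j2 (0.80), a subunit of ATP synthase. For Apoc4 they were Serf2 (0.85), Ogfrl1 (0.78) and Selenow (0.78), and for Apoa5 Chmp1b (0.80), Rrs1 (0.79) and Alas1 (0.79), the first enzyme of haem synthesis. All 3 most alike entries of Apoa4, and all 3 of Apoc3, were transcripts without a symbol, with r up to 0.94 and 0.85. For some of these genes another probe, well above background on all 24 arrays, did not follow: it had r of -0.41 for Serf2, and 2 such probes had 0.22 and 0.23 for Tor1aip2. Some of the likeness depended on the scaling. Under the 7 other scalings the r of Azgp1 with Apoe was as low as 0.12 and that of Tmbim6 with Apoa2 as low as 0.0019, while the r of Hgd with Apoc2 stayed between 0.72 and 0.84 and that of the entry most like Apoa4 between 0.93 and 0.96.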

How the data were processed

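Liver RNA of 24 mice was measured on 24 Agilent arrays of 2 colours, with the mouse in Cy5 and a pool of all mice in Cy3, per the labels, and without a dye swap. The deposited scanner files hold spot intensity values. The submitters' processing notes name Agilent Feature Extraction 10.7.3.1. The processed signals are intensities after that software's background and dye correction, per the file headers. The authors' deposited table holds log2 values of 29287 spots whose columns each matched the Cy5 channel of their own array (r from 0.993 to 0.999) with a median of 8.6; how it was scaled is not stated in the labels or headers. The log10 ratio that the scanner files also hold, deposited by the authors, was not used.

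Mean signals were corrected by normexp with an offset of 50 and normalised by loess within arrays in limma 3.58.1 under R 4.3.3, with control spots at weight 0 and spots flagged as outliers left out. Values of the same probe were averaged. Probes were kept when well above background in Cy5 on at least 6 arrays of 1 diet, and the brightest probe by mean Cy5 signal stood for its gene. Diets were compared with lmFit and eBayes, 2-sided, with Benjamini-Hochberg adjustment over 18650 genes and a threshold of 0.05. Spread was compared in the same way on absolute deviations from the diet median. Pair correlations had permutation p-values from 100000 resamples, adjusted over the 45 pairs, and exact ones within a slide of 8. No array held the values of another. The number of mice limits the precision. Nothing in the labels says whether mice shared a litter.

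On simulated data with 18650 genes and 12 mice per diet, 54% of 50 genes changed by 0.3 on the log2 scale were recovered, 98% at 0.6 and 100% at 1.0 and at 1.5, with 13 false calls among 189. These sizes were present together in the same data, and recovery of changes of 0.3 alone was not tested. Of 100 simulated pairs with r of 0.7, 90% were recovered, with 9 false calls among 99.

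The genes, the lists and the tests were chosen with earlier results of these data known. Genes named were the 10 members, the 3 genes most like each by r (those without a symbol were only counted), and in each list up to 3 with the smallest unadjusted p, beside marker genes that were not measured; others are said to be chosen after their values were seen. Of all probes 32994 were matched to RefSeq by accession and 10224 by symbol. Alternatives covered background, normalisation, channel, the deposited table, filter, probe rule, blocks, weights, slides and each mouse left out. Plots were drawn with matplotlib 3.10.9.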

Additional observations from a re-analysis of the deposited data

How the results depend on the processing

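No apolipoprotein gene passed the adjusted threshold for a diet difference under the 19 other settings or for spread under 13 of them, nor without any single mouse. Among all genes 0 passed, except 1 without GLU replicate 3; left-out mice gave counts from 0 to 1. With the replicate number of the labels as a block 0 genes passed, so this block changed no call. The Apoa1 difference stayed at -0.22, as it must when each number holds a mouse of each diet. Same-numbered mice had deviations that correlated from -0.38 to 0.52, with a median of 0.16, beside -0.015 for mice of other numbers. Of the 12, 8 were over 0.1 and 2 correlated best with their own number, and the numbers were not taken as pairs. Whether same-numbered mice are more alike than others was not tested. The cause of each change below was not tested.

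Differences reversed, with normalisation or channel, as follows. In the processed signals they were 0.067 (Apoa2), 0.070 (Apoa5), 0.096 (Apoc1), 0.0036 (Apoc3), 0.012 (Apoc4), 0.023 (Apoe) and 0.064 (Apoh). With Cy5 alone after quantile normalisation they were 0.018 (Apoa2), 0.037 (Apoa5), 0.031 (Apoc1) and 0.042 (Apoh), and at the 75th percentile 0.0085 (Apoa2), 0.037 (Apoa5), 0.014 (Apoc1), 0.016 (Apoc4) and 0.042 (Apoh). With median centring they were 0.029 (Apoa2), 0.066 (Apoa5), 0.048 (Apoc1), 0.0084 (Apoc4) and 0.046 (Apoh). In the values the authors deposited they were 0.054 (Apoa2), 0.0875 (Apoa5), 0.06 (Apoc1), 0.03 (Apoc4), 0.005 (Apoe) and 0.071 (Apoh). Slide 1 alone gave 1.9e-05 (Apoa2), -0.14 (Apoa4) and -0.086 (Apoc2), slide 2 alone -0.046 (Apoc2), and slide 3 alone 0.16 (Apoa5), 0.15 (Apoc1) and 0.0996 (Apoc4). Without single mice Apoa5 ran from -0.055 to 0.019, Apoc2 from 0.036 to 0.14, Apoc1 from -0.091 to -0.036 and Apoh from -0.071 to -0.032. The median difference of the 10 genes, -0.065, ran from -0.15 on slide 1 to 0.065 in the processed signals.

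The 7 pairs past the threshold became 25 in the processed signals, 1 and 12 with Cy5 alone (quantile and 75th percentile), 31 with median centring, 26 in the deposited values, 4 with the mean of all probes of a gene, 0 on each slide alone (8 mice) and 3 to 8 without single mice. Mean r in the chromosome 7 cluster was 0.65, 0.17, 0.69 and 0.63 with processed signals, Cy5 quantile, median centring and deposited values, and 0.51 and 0.14 on slides 1 and 3. In the chromosome 9 cluster it was -0.0039 with Cy5 quantile, 0.29 with median centring, 0.197 in the deposited values and 0.295 on slide 1. Over the other pairs it was 0.43 in the processed signals, 0.10 and 0.30 with Cy5 alone, 0.54 with median centring, 0.44 in the deposited values, and 0.38, 0.297 and 0.14 on the slides. The r of Apoa1 with Apoc1 was 0.055 with Cy5 alone at the 75th percentile and 0.41 on slide 1.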

Other observations

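The array entries most like Apoa1 were unusual for liver. The look at their other probes was chosen after the values were seen. The highest r over the 24 mice was that of the probe used for Lmx1b, a homeobox transcription factor of limb and kidney, at 0.91, followed by the one used for Cd4, the co-receptor of helper T cells, at 0.85. Under the 7 other scalings these r stayed between 0.86 and 0.95 for Lmx1b and between 0.69 and 0.89 for Cd4. Each gene has another probe that was well above background on all 24 arrays, and it did not follow Apoa1, with r of -0.09 for Lmx1b and 0.18 for Cd4. A further probe of each was well above background on 0 of 24 arrays. What these probes measure in liver was not tested.

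Probes of the same gene also differed for other most alike entries. For the transcript without a symbol that was most like Apoa4, the probe in use had r of 0.94 and its other probe 0.12. Among the named genes with further probes well above background on all 24 arrays, those of Alas1 had r of 0.78 and 0.74 with Apoa5, against 0.79 for the probe in use. Those of Aldh2 had r of 0.65, 0.58 and 0.37 with Apoa2, that of Lamp1 0.60 with Apoh and that of Hgd 0.56 with Apoc2. Those of Tor1aip2 had r of 0.22 and 0.23 with Apoc1, and that of Serf2 -0.41 with Apoc4.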
